A study of Rattus norvegicus with 12 samples.

Results

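The axon guidance ligands and receptors are 56 of the 14329 genes measured by the arrays in rat laryngeal muscle. They were taken by gene symbol, as every semaphorin, plexin, neuropilin, slit, roundabout, netrin, netrin-G, Unc5, Dcc, ephrin and Eph receptor gene to which the platform annotation gives a probe set of its own. The set holds 16 semaphorins, 5 plexins, 2 neuropilins, 2 slits, 4 roundabout receptors, 3 netrins, 2 netrin-G genes, 4 netrin receptors (Dcc, Unc5a, Unc5b and Unc5c), 7 ephrins and 11 Eph receptors. Of these genes Sema4c had 2 probe sets, of which the one with the higher mean over all arrays was used. No member was removed for low values, and 4 members (Dcc, Ntng1, Plxnb3 and Robo3) had a mean under 6 on the log2 scale.

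These families carry signals that steer growing axons, and most act in other tissues too. Semaphorins bind plexins, with neuropilins as co-receptors for the secreted class. Slits bind roundabout receptors and repel axons, and netrins attract through Dcc and repel through Unc5 receptors. Ephrins are ligands held on the cell surface, A ephrins by a lipid anchor and B ephrins by a membrane span, and their Eph receptors are tyrosine kinases that sort cells at tissue borders. In muscle, ephrin and semaphorin signals are known to bear on where motor axons settle and branch, and the same genes are also active in epithelium, vessels, fibroblasts and macrophages.

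The tissue came from male F344 rats. In the injury groups the recurrent laryngeal nerve, which drives these muscles, had been cut on one side and 1 cm of it taken away, and in the control groups the surgery was the same but spared the nerve. Muscle was taken 1 week later from the posterior cricoarytenoid (PCA), which opens the vocal folds, or from the adductor complex (AC), which closes them. The 4 groups, control and injury in the PCA and control and injury in the AC, have 3 arrays each. The labels give 10 animals per surgery group and do not tie arrays to animals, so the p-values rest on a spread between arrays that may be technical, and PCA and AC arrays may come from the same animals. A value is the deposited log2 expression value of an array, and a difference is a difference of group means on the log2 scale, given ± its SE from limma. A gene was called higher or lower at an adjusted p (limma, Benjamini-Hochberg over all 14329 genes) under 0.05.

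Whole tissue was measured, so fewer cells of a type and less RNA per cell cannot be told apart. All 9 denervation response genes measured (acetylcholine receptor subunits, Myog, Ncam1 and others) were higher after injury in both muscles, and a mean over 10 skeletal muscle markers was 12.7 to 12.9 in PCA controls, 11.8 to 12.7 in PCA injury, 12.4 to 12.7 in AC controls and 12.1 to 12.4 in AC injury. A mean over 9 squamous epithelium markers was 7.53 to 10.6 in the PCA controls, 11.1 to 11.7 in PCA injury, 11.7 to 12.1 in AC controls and 11.2 to 11.7 in AC injury. PCA control 2, at 10.6, stood apart from the other PCA controls at 8.36 and 7.53. Among 9 of the arrays a mean over 11 thyroid and parathyroid transcripts was 6.27 to 7.29, but PCA control 1 reached 10.4, PCA injury 2 reached 10.1 and AC injury 2 reached 8.67. The counts of called members are therefore also given without these 3 arrays and with the squamous mean as a covariate.

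After nerve injury in the PCA, 16 members rose and 5 fell, 37.5% of the 56, where 25.8% of all genes were called. Rises made up 28.6% of the members and 13.3% of all genes. Falls made up 8.93% of the members and 12.5% of all genes. The members' median difference was 0.05, and that of all genes -0.03. Non-overlapping groups, in which every array of one lay above every array of the other, were seen for 16 members that were higher and 6 that were lower (39.3%), with 37% of all genes doing so, 18.2% higher and 18.8% lower. The 35 members that were not called ran from -0.28 (Ntn1) to 0.48 (Robo1).

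In the AC, 1 member, Plxnd1, rose and 0 fell, or 1.79% of members, with 1.91% of all genes called, 1.15% higher and 0.761% lower. That share of members was thus about the share of all genes. At an unadjusted p under 0.05, 13 members passed in limma's test, 23.2% where all genes gave 20.3%. The AC groups did not overlap for 8 members that were higher and 10 that were lower, 32.1% of members, compared with 28.4% of all genes, 15.3% higher and 13.1% lower. Median differences were 0.01 for the members and 0.02 for all genes.

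The test of the difference itself, the PCA effect minus the AC effect, called 1 member, Ephb3, or 1.79%, and 0.154% of all genes. At an unadjusted p under 0.05 it passed 13 members, 23.2% where all genes gave 15.7%. For the other 55 members, being called in the PCA and not in the AC does not show that the muscles responded differently.

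Between the control muscles, 1 member was higher and 11 were lower in the PCA than in the AC, 21.4% of members against 10.6% of all genes. Lower members made up 19.6% and lower genes in all 7.39%, while higher ones made up 1.79% of members and 3.24% of all genes. Control groups did not overlap for 6 members that were higher and 21 that were lower in the PCA, 48.2%, where all genes gave 33.7%, 17.7% higher and 15.9% lower. This comparison and that of injury with control in the PCA share the 3 PCA control arrays, so their values are given side by side and are not independent of each other.

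**Figure D1:**
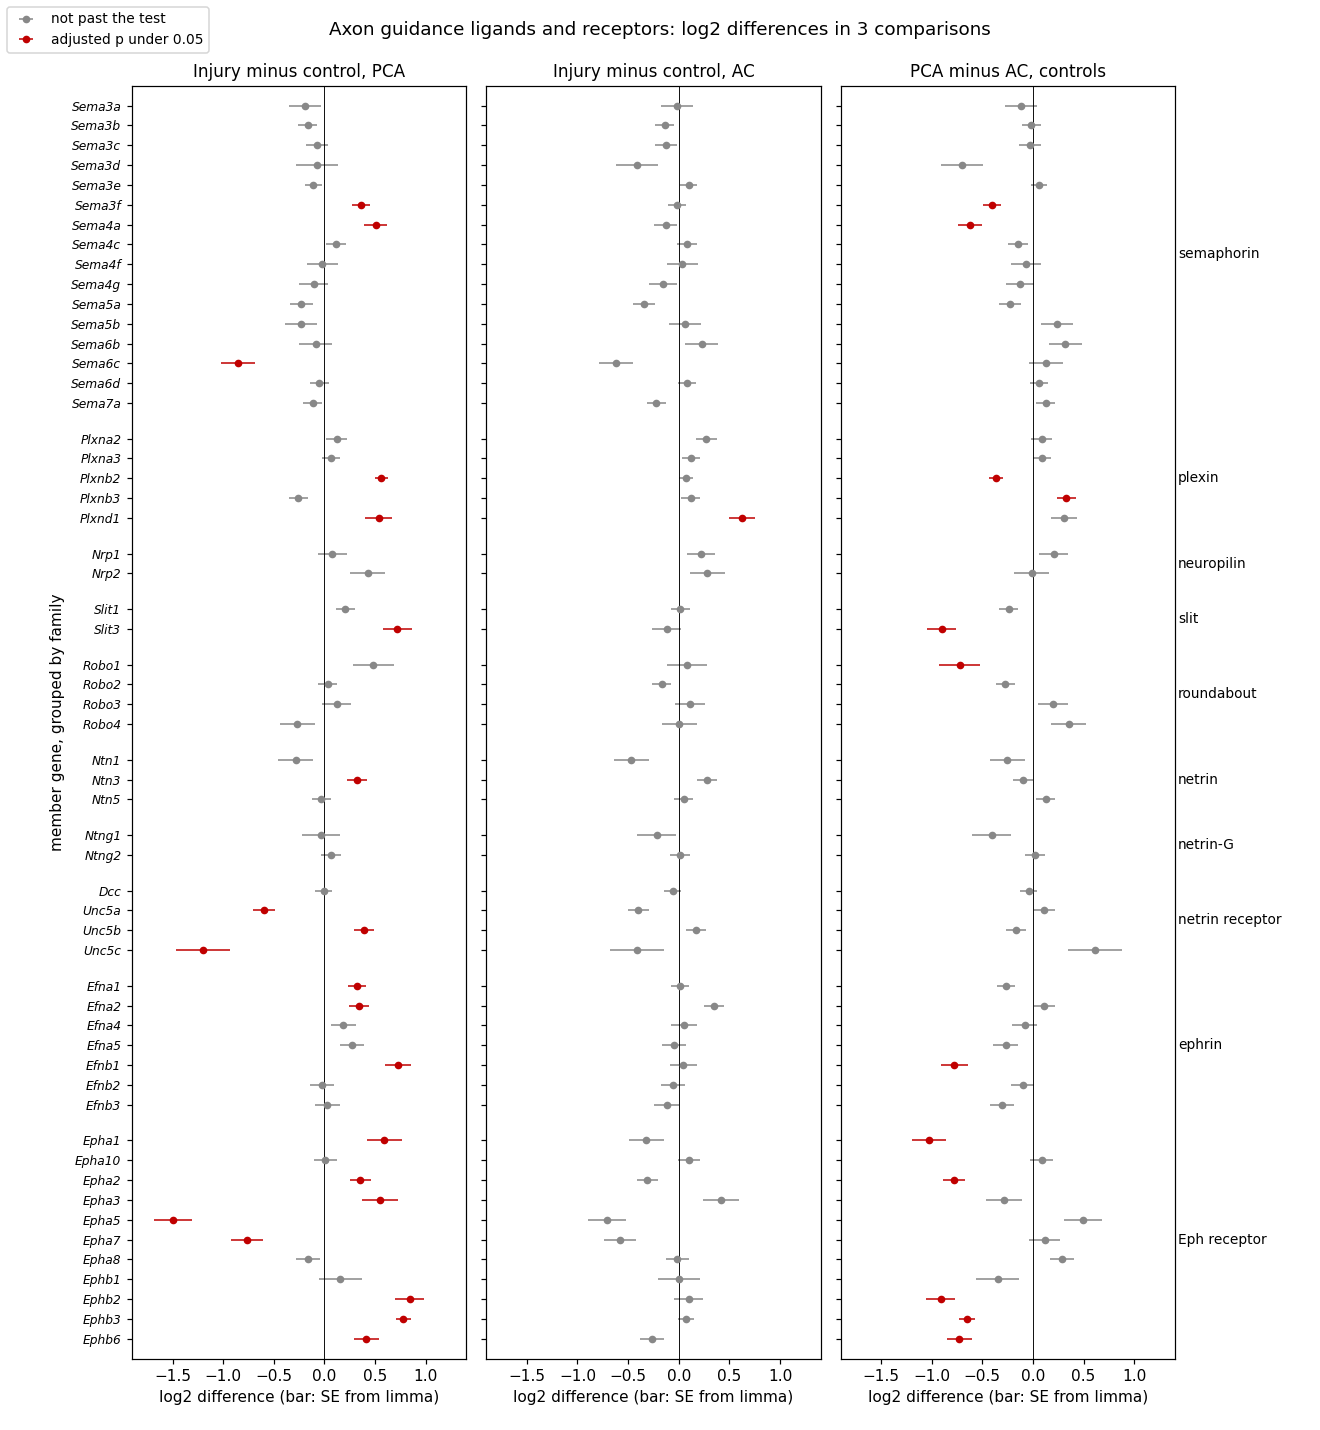
Log2 differences of the 56 members (points, with bars for the SE from limma) for injury minus control in the PCA, injury minus control in the AC, and PCA minus AC in controls, with 3 arrays per group and members grouped by family. Members past an adjusted p of 0.05 are red: 21 in the PCA, 1 in the AC and 12 between the control muscles.

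These counts were smaller once the squamous mean was a covariate or the 3 arrays with thyroid transcripts were left out. With the squamous mean as a covariate, 3 of the 21 members stayed called in the PCA (Ephb3, Plxnb2 and Sema6c), as the share of all genes called went to 2.48%. Between the control muscles 0 of the 12 stayed called, with 7 members at an unadjusted p under 0.05 in limma and 0.014% of all genes called. The squamous mean was 7.53 to 10.6 in PCA controls and 11.1 to 12.1 in all other arrays, so this covariate largely follows the group. A call could be lost through a larger SE as well as through a smaller difference. The PCA difference of Ephb2 went from 0.84 ± 0.14 to 0.85 ± 0.25, and that of Ephb6 from 0.41 ± 0.12 to 0.04 ± 0.16. Without the 3 thyroid-high arrays, 10 of the 21 stayed called in the PCA (Efnb1, Epha5, Epha7, Ephb2, Ephb3, Plxnb2, Sema4a, Sema6c, Unc5a and Unc5c), with 16.3% of all genes. Leaving out single arrays gave 14 to 21 called members, the fewest without PCA injury 1, and 19 without PCA control 2. The share of all genes called in those fits is not given here.

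Eph receptors include 8 of the 21 members called in the PCA. Of 11 measured, 6 rose and 2 fell (72.7%, where all genes gave 25.8%), and their median difference was 0.35. In the AC 0 of the 11 were called, where all genes gave 1.91%. There 4 were at an unadjusted p under 0.05 in limma (36.4%, all genes 20.3%), and the median was -0.01. Between controls 5 were lower in the PCA than in the AC (45.5%, where 7.39% of all genes were lower), and the median was -0.35.

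Epha5, a receptor of A ephrins best known from the mapping of nerve connections, had the largest fall of any member. It stood at 7.40, 7.60 and 8.10 in PCA controls and at 6.26, 6.14 and 6.21 in PCA injury. Its values were 6.87, 7.56 and 7.19 in AC controls and 6.59, 6.39 and 6.51 in AC injury. All injury arrays thus lay below all control arrays of the same muscle, and the injury arrays of the PCA were close together. The PCA difference was -1.50 ± 0.19, a 2.82-fold fall (adjusted p = 0.000458, limma). In the AC it was -0.71 ± 0.19 (adjusted p = 0.0742, limma), not past the test, and the effects did not differ past the test (-0.79 ± 0.26, adjusted p = 0.171).

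Epha7, another receptor of A ephrins, was at 9.62, 9.17 and 9.38 in PCA controls and 8.43, 8.93 and 8.52 in PCA injury. In the AC it was at 9.21, 9.41 and 9.20 in controls and 8.92, 8.58 and 8.58 in injury. The groups were apart in both muscles, with the injury arrays low. It fell by 0.76 on the log2 scale in the PCA (SE 0.15, 1.7-fold, adjusted p = 0.00481, limma), and in the AC the difference was -0.58 ± 0.15 (adjusted p = 0.0775, limma). With the squamous covariate the PCA differences were -1.18 for Epha5 (adjusted p = 0.0648, limma) and -0.58 for Epha7 (adjusted p = 0.252, limma).

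Ephb2 and Ephb3, receptors of B ephrins that keep cells of neighbouring compartments apart, rose in the PCA. Ephb3 was at 7.69, 7.71 and 7.79 in PCA controls and 8.41, 8.60 and 8.52 in PCA injury. AC controls were at 8.45, 8.39 and 8.31, and AC injury at 8.44, 8.37 and 8.55. Only the 3 PCA control arrays were low, and the 9 others lay between 8.31 and 8.60. The PCA rise was 0.78 ± 0.08 (1.72-fold, adjusted p = 0.000207, limma), with 0.07 ± 0.08 in the AC (adjusted p = 0.668, limma). PCA controls were 0.65 ± 0.08 below AC controls (adjusted p = 0.00158, limma). The injury effects differed by 0.71 ± 0.11 (adjusted p = 0.0419, limma), the 1 member past that test, and this call was lost in 10 of 12 fits that left out a single array, all but those without PCA control 2 or AC injury 3, with adjusted p up to 0.0944. It was also lost with the squamous covariate (0.71, adjusted p = 0.621) and without the 3 thyroid-high arrays (0.60, adjusted p = 0.196, limma). The rise in the PCA itself was kept under all 22 alternatives, and was 0.78 with the squamous covariate (adjusted p = 0.032, limma).

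Ephb2 read 7.30, 7.76 and 7.96 in PCA controls and 8.56, 8.47 and 8.52 in PCA injury. In the AC it read 8.70, 8.53 and 8.52 in controls and 8.81, 8.71 and 8.52 in injury. As for Ephb3, the PCA controls were the low arrays and the AC groups overlapped. Its PCA rise of 0.84 ± 0.14 (1.79-fold, adjusted p = 0.00211, limma) was the largest of any member, and its AC difference was 0.10 ± 0.14 (adjusted p = 0.767, limma). The effects differed by 0.75 ± 0.20, not past the test (adjusted p = 0.102, limma).

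Epha1 and Epha2 are Eph receptors known mainly from epithelium, and Ephb6 is a family member without kinase activity. Epha1 was at 7.34, 7.40 and 7.02 in PCA controls, 7.68, 7.81 and 8.04 in PCA injury, 8.62, 8.07 and 8.15 in AC controls and 8.23, 7.75 and 7.90 in AC injury. Epha2 was at 7.52, 7.61 and 7.46 in PCA controls, 7.88, 7.84 and 7.93 in PCA injury, 8.49, 8.16 and 8.28 in AC controls and 8.11, 7.80 and 8.09 in AC injury. Both were lowest in the PCA controls and highest in an AC control array, and for Epha2 the AC injury arrays lay below all AC controls while the PCA injury arrays lay above all PCA controls. Epha1 rose by 0.59 ± 0.17 in the PCA (adjusted p = 0.0277, limma) and Epha2 by 0.35 ± 0.10 (adjusted p = 0.0288, limma). In the AC the differences were -0.32 ± 0.17 for Epha1 (adjusted p = 0.331) and -0.31 ± 0.10 for Epha2 (adjusted p = 0.133). The 2 effects of a gene differed by 0.91 ± 0.24 for Epha1 (adjusted p = 0.099) and 0.66 ± 0.15 for Epha2 (adjusted p = 0.0689), neither past the test.

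Ephb6 was at 7.32, 7.62 and 7.26 in PCA controls, 7.71, 7.89 and 7.84 in PCA injury, 8.36, 8.04 and 7.98 in AC controls and 7.99, 7.81 and 7.79 in AC injury. PCA controls were again the lowest group. Its PCA rise was 0.41 ± 0.12 (adjusted p = 0.0291, limma). The squamous markers moved with these genes: all 9 were higher in PCA injury than in PCA controls and all 9 lower in PCA controls than in AC controls. Airway epithelium markers mostly did not: of 7 measured, 1 was higher in PCA injury and 2 were lower in PCA than in AC controls. Their mean was 9.87 to 10.2 in PCA controls, 10.0 to 10.3 in PCA injury and 10.4 to 10.6 in AC controls. With the squamous mean as a covariate the PCA differences were 0.17 for Epha1, 0.16 for Epha2 and 0.04 for Ephb6 (adjusted p 0.789, 0.683 and 0.933, limma), and 0.85 for Ephb2 (adjusted p = 0.0964, limma). Without the 3 thyroid-high arrays these calls of Epha1, Epha2 and Ephb6 were lost too (adjusted p 0.083, 0.0699 and 0.203, limma). The differences there were 0.65 ± 0.22, 0.37 ± 0.12 and 0.335 ± 0.16. Those of Epha1 and Epha2 were thus not smaller than in the main fit, but had a larger SE. Single arrays also decided these calls. The call of Epha1 was lost without PCA control 3 or PCA injury 2 or 3 (adjusted p up to 0.109), of Epha2 without PCA control 1 or 3 or PCA injury 1 or 3 (up to 0.0981), and of Ephb6 without PCA control 1 or 3 or PCA injury 2 or 3 (up to 0.11).

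Epha3, a receptor of A ephrins found on mesenchymal cells, had overlapping groups in the PCA. It was at 7.46, 7.79 and 7.68 in PCA controls, 8.58, 8.21 and 7.79 in PCA injury, 7.93, 7.99 and 7.87 in AC controls and 8.22, 8.21 and 8.62 in AC injury. Injury arrays were the higher ones in both muscles, except that PCA injury 3 equalled PCA control 2. Its PCA rise was 0.55 ± 0.18 (adjusted p = 0.0431, limma), and its AC difference 0.42 ± 0.18 (adjusted p = 0.217, limma). The call in the PCA was lost in 10 of 12 fits without a single array, all but those without PCA injury 3 or AC injury 3, with adjusted p up to 0.152. It was also lost with the squamous covariate (0.51, adjusted p = 0.426) and without the 3 thyroid-high arrays (0.45, adjusted p = 0.226, limma). Epha8, Epha10 and Ephb1, the other Eph receptors, were called in no comparison.

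Between the control muscles the Eph receptors lower in the PCA were Epha1 (-1.03 ± 0.17, adjusted p = 0.00487), Ephb2 (-0.91 ± 0.14, adjusted p = 0.00421), Epha2 (-0.78 ± 0.10, adjusted p = 0.00247), Ephb6 (-0.73 ± 0.12, adjusted p = 0.00487) and Ephb3, all by limma. For each of the 5, every PCA control array lay below every AC control array.

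Of the 7 ephrins, 3 rose and 0 fell in the PCA (42.9%, where all genes gave 25.8%), with a median of 0.27. In the AC 0 were called (all genes 1.91%), and 1 (Efna2) was at an unadjusted p under 0.05 in limma (14.3%, all genes 20.3%). Efnb1, a membrane-spanning ligand of EphB receptors, was at 7.98, 8.18 and 7.67 in PCA controls and 8.56, 8.59 and 8.86 in PCA injury. AC values were 8.84, 8.68 and 8.64 in controls and 8.80, 8.64 and 8.86 in injury. The PCA controls were thus the low arrays, as for its receptors Ephb2 and Ephb3. It rose by 0.73 ± 0.13 in the PCA (1.66-fold, adjusted p = 0.00264, limma) and differed by 0.05 ± 0.13 in the AC (adjusted p = 0.884, limma). PCA controls were 0.78 ± 0.13 below AC controls (adjusted p = 0.00487, limma). The difference of both effects was 0.68 ± 0.18 (adjusted p = 0.102, limma), and with the squamous covariate the PCA difference was 0.28 (adjusted p = 0.345, limma).

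The A ephrins that rose in the PCA were Efna1 (0.32 ± 0.09, adjusted p = 0.0225) and Efna2 (0.34 ± 0.10, adjusted p = 0.028), both by limma. Their AC differences parted, 0.01 ± 0.09 for Efna1 and 0.35 ± 0.10 for Efna2 (adjusted p = 0.953 and 0.0896, limma). Efna2 was higher in every injury array than in every control array of its muscle. With the squamous covariate the PCA differences were 0.12 for Efna1 and 0.11 for Efna2 (adjusted p = 0.717 and 0.774, limma). Both calls were also lost without the 3 thyroid-high arrays, at 0.265 ± 0.12 for Efna1 and 0.41 ± 0.13 for Efna2 (adjusted p = 0.168 and 0.0675, limma). Efna1 was also lost without PCA control 1 or 3 or PCA injury 1 or 2 (adjusted p up to 0.0928), and Efna2 without PCA control 1 or 3 or PCA injury 1 or 3 (up to 0.112).

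Efna5 and Efnb2 were among the ligands of known pairs to be described whatever their values. Efna5, a ligand of Epha5 and Epha7, was at 8.39, 8.15 and 8.09 in PCA controls, 8.54, 8.56 and 8.35 in PCA injury, 8.68, 8.33 and 8.43 in AC controls and 8.62, 8.33 and 8.35 in AC injury. Efnb2, a B ephrin of arteries, was at 8.53, 8.12 and 8.22 in PCA controls, 8.16, 8.26 and 8.37 in PCA injury, 8.43, 8.51 and 8.24 in AC controls and 8.37, 8.21 and 8.44 in AC injury. All their groups overlapped within each muscle. Efna5 differed by 0.27 ± 0.12 in the PCA (adjusted p = 0.125) and Efnb2 by -0.03 ± 0.12 (adjusted p = 0.904, limma). Their partners Epha4 and Ephb4 were not analysed here.

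**Figure D2:**
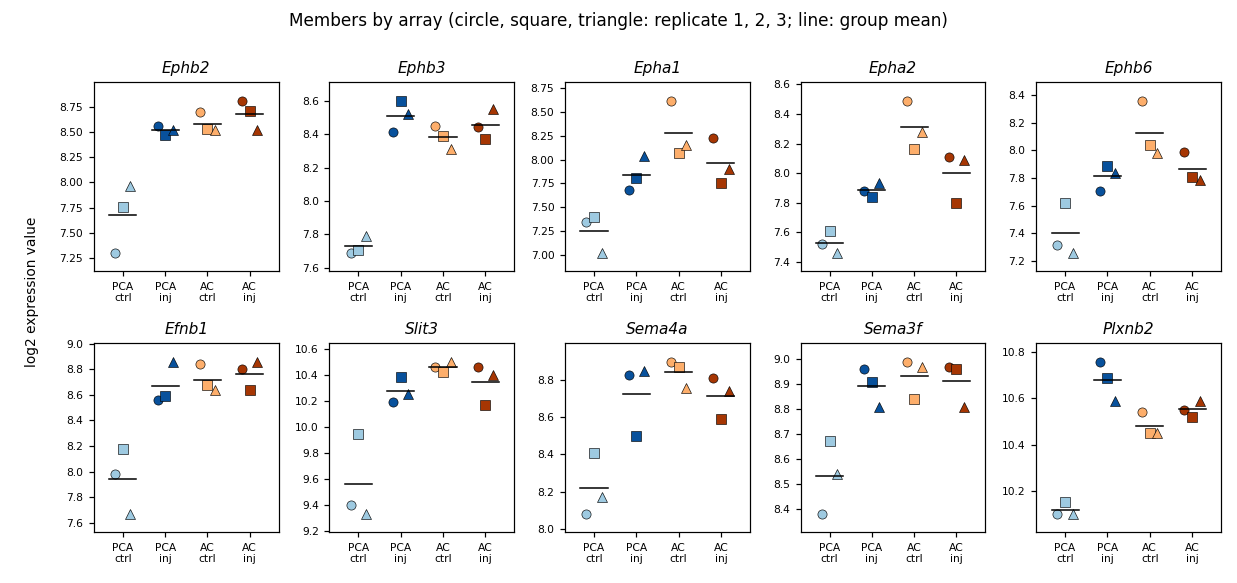
Log2 values by array for 10 members called both for injury in the PCA and between the control muscles (circle, square and triangle for replicates 1, 2 and 3, line for the group mean; both comparisons use the same PCA control arrays). The choice of members already places the PCA control mean below PCA injury and AC controls. It is also below the AC injury mean in every panel. For Ephb3 the PCA controls are at 7.69 to 7.79 and the 9 other arrays at 8.31 to 8.60.

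Semaphorins are the family with the most members. Of 16 measured, 2 rose and 1 fell in the PCA, 18.8% where 25.8% of all genes were called, with a median of -0.10. In the AC 0 were called (all genes 1.91%), and 3 were at an unadjusted p under 0.05 in limma (18.8%, all genes 20.3%). Sema6c, a membrane semaphorin of muscle and nerve, was at 8.76, 9.33 and 8.85 in PCA controls and 7.91, 8.0 and 8.48 in PCA injury. The AC gave 8.96, 8.77 and 8.82 in controls and 8.33, 8.11 and 8.25 in injury. Injury arrays were below control arrays in both muscles. The PCA fall was 1.8-fold, -0.85 ± 0.17 on the log2 scale (adjusted p = 0.00424, limma), and the AC difference -0.62 ± 0.17 (adjusted p = 0.0809, limma). The effects of injury in both muscles differed by -0.23 (adjusted p = 0.681, limma). The PCA fall was kept under all 22 alternatives, at -1.40 with the squamous covariate (adjusted p = 0.032, limma) and at -0.90 without the thyroid-high arrays.

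Sema4a, a membrane semaphorin known from immune cells, was at 8.08, 8.41 and 8.17 in PCA controls, 8.83, 8.50 and 8.85 in PCA injury, 8.90, 8.87 and 8.76 in AC controls and 8.81, 8.59 and 8.74 in AC injury. Sema3f, a secreted ligand of Nrp2, was at 8.38, 8.67 and 8.54 in PCA controls, 8.96, 8.91 and 8.81 in PCA injury, 8.99, 8.84 and 8.97 in AC controls and 8.97, 8.96 and 8.81 in AC injury. For both genes the PCA controls were below all 9 other arrays. In the PCA, Sema4a rose by 0.51 ± 0.12 (adjusted p = 0.00867, limma) and Sema3f by 0.36 ± 0.09 (adjusted p = 0.0125, limma). Their AC differences were -0.13 and -0.02 (adjusted p = 0.578 and 0.929, limma). PCA controls were below AC controls by 0.62 ± 0.12 for Sema4a (adjusted p = 0.00707) and 0.40 ± 0.09 for Sema3f (adjusted p = 0.0163, limma). Neither was called in the PCA with the squamous covariate, where the differences were 0.26 for Sema4a and 0.23 for Sema3f (adjusted p = 0.482 and 0.444, limma). The control call of Sema3f was lost without PCA control 1 or 3 or AC control 1 or 3 (adjusted p up to 0.0687), and both its calls were lost without the 3 thyroid-high arrays.

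Sema3a, Sema3e and Sema7a, described as ligands of known pairs, were called in no comparison. Sema3a, a secreted repellent that binds Nrp1, was at 7.27, 7.34 and 7.88 in PCA controls, 7.23, 7.28 and 7.41 in PCA injury, 7.34, 7.81 and 7.69 in AC controls and 7.61, 7.51 and 7.66 in AC injury. Sema3e, the ligand of Plxnd1, was at 6.80, 6.68 and 6.85 in PCA controls, 6.68, 6.61 and 6.71 in PCA injury, 6.70, 6.73 and 6.73 in AC controls and 6.95, 6.67 and 6.83 in AC injury. Both had overlapping groups in each muscle. The PCA differences were -0.19 ± 0.16 for Sema3a and -0.11 ± 0.08 for Sema3e (adjusted p = 0.431 and 0.367, limma).

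Sema7a, held to the membrane by a lipid anchor, was at 9.65, 9.36 and 9.45 in PCA controls, 9.32, 9.35 and 9.44 in PCA injury, 9.41, 9.35 and 9.32 in AC controls and 8.97, 9.21 and 9.23 in AC injury. Its AC injury arrays were all below its AC controls, by -0.22 ± 0.09 in the mean (adjusted p = 0.213, limma). Sema3d and Sema5a were lower in every AC injury array than in every AC control, at -0.41 ± 0.21 and -0.35 ± 0.11 (adjusted p = 0.299 and 0.111, limma), and neither was called.

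Among the 5 plexins, the receptors of semaphorins, 2 rose and 0 fell in the PCA (40%, all genes 25.8%). In the AC 1 plexin rose (20%, all genes 1.91%). Plxnd1, the receptor of Sema3e known from vessels, was the 1 member called in both muscles. It was at 10.04, 10.05 and 9.84 in PCA controls and 10.70, 10.61 and 10.23 in PCA injury. AC arrays gave 9.66, 9.62 and 9.73 in controls and 10.10, 10.50 and 10.28 in injury. All injury arrays were above all control arrays of the same muscle. The rise was 0.54 ± 0.13 in the PCA (1.45-fold, adjusted p = 0.0124, limma) and 0.62 ± 0.13 in the AC (adjusted p = 0.0437, limma), and the effects differed by -0.09 ± 0.19 (adjusted p = 0.86, limma).

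The AC call of Plxnd1 lay near the threshold. It was lost in 9 of 12 fits without a single array, all but those without PCA injury 1, PCA injury 3 or AC injury 1, with differences of 0.52 to 0.72 and adjusted p up to 0.165. The PCA call was lost without PCA control 3 or PCA injury 1 (adjusted p up to 0.0534). Without the 3 thyroid-high arrays the difference was 0.52 in each muscle (adjusted p = 0.0567 in the PCA and 0.189 in the AC, limma). It was 0.52 with the squamous covariate in the PCA (adjusted p = 0.25) and 0.63 in the AC (adjusted p = 0.0684, limma). Of 6 endothelial markers 0 were called in limma in either muscle, with 0 in the PCA and 3 in the AC at an unadjusted p under 0.05, and their mean was 9.14 to 9.52 in PCA controls, 9.14 to 9.56 in PCA injury, 9.03 to 9.14 in AC controls and 9.26 to 9.43 in AC injury.

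Plxnb2, a receptor of class 4 semaphorins in epithelium and immune cells, was at 10.10, 10.15 and 10.10 in PCA controls and 10.76, 10.69 and 10.59 in PCA injury. AC controls were at 10.54, 10.45 and 10.45, and AC injury at 10.55, 10.52 and 10.59. The PCA controls were the lowest group and the PCA injury arrays reached highest. It rose by 0.56 ± 0.07 in the PCA (1.48-fold, adjusted p = 0.000394, limma), with 0.07 ± 0.07 in the AC (adjusted p = 0.589, limma) and a difference of 0.49 ± 0.09 (adjusted p = 0.0657, limma). The PCA rise was kept under all 22 alternatives, at 0.53 with the squamous covariate (adjusted p = 0.0471, limma). PCA controls were 0.36 ± 0.07 below AC controls (adjusted p = 0.00684, limma), a call lost without the 3 thyroid-high arrays (-0.355, adjusted p = 0.0509).

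Plxnb3 was the 1 member higher in PCA than in AC controls, and its values were low, with a mean over all arrays of 5.84. It was at 5.97, 6.26 and 5.90 in PCA controls, 5.80, 5.80 and 5.75 in PCA injury, 5.65, 5.78 and 5.71 in AC controls and 5.74, 5.91 and 5.84 in AC injury. The PCA controls were the high arrays, above all PCA injury arrays and all AC controls. The control difference was 0.33 ± 0.09 (adjusted p = 0.047, limma). Its call was lost in 11 of 12 fits without a single array, all but that without PCA control 3 (adjusted p up to 0.152). It was also lost without the 3 thyroid-high arrays (0.37, adjusted p = 0.109, limma).

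The neuropilins were called in no comparison. Nrp1, the co-receptor of Sema3a, was at 10.52, 10.05 and 10.04 in PCA controls, 10.43, 10.43 and 9.98 in PCA injury, 9.99, 9.97 and 10.03 in AC controls and 10.17, 10.23 and 10.25 in AC injury. Nrp2, the co-receptor of Sema3f, was at 9.59, 9.82 and 9.79 in PCA controls, 10.59, 10.06 and 9.83 in PCA injury, 9.65, 9.79 and 9.80 in AC controls and 9.79, 10.18 and 10.12 in AC injury. Nrp1 was high in PCA control 1 alone among its group, and Nrp2 was above all PCA controls in every PCA injury array. The PCA differences were 0.08 ± 0.14 for Nrp1 (adjusted p = 0.751) and 0.43 ± 0.17 for Nrp2 (adjusted p = 0.0916, limma).

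Of 2 slits, Slit3 rose in the PCA (50%, where all genes gave 25.8%). It was at 9.40, 9.94 and 9.33 in PCA controls and 10.19, 10.38 and 10.25 in PCA injury. Its AC values were 10.46, 10.42 and 10.50 in controls and 10.46, 10.17 and 10.40 in injury. PCA controls lay below all other arrays, with PCA control 2 the nearest to them. It rose by 0.72 ± 0.14 (1.64-fold, adjusted p = 0.00453, limma) in the PCA and differed by -0.12 in the AC (adjusted p = 0.706, limma). PCA controls were 0.90 ± 0.14 below AC controls (adjusted p = 0.00421, limma), and the effects differed by 0.83 ± 0.20 (adjusted p = 0.0818, limma). With the squamous covariate the PCA difference was 0.17 (adjusted p = 0.557), and without the 3 thyroid-high arrays 0.59 (adjusted p = 0.0505, limma).

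Of 4 roundabout receptors 0 were called after injury in either muscle (all genes 25.8% in the PCA and 1.91% in the AC). By limma 1 (Robo1) was at an unadjusted p under 0.05 in the PCA (25%, all genes 36.9%) and 0 in the AC (all genes 20.3%). Robo1, a receptor of slits, was at 7.74, 8.41 and 8.52 in PCA controls, 9.02, 8.37 and 8.73 in PCA injury, 8.85, 9.03 and 8.96 in AC controls and 9.02, 8.90 and 9.17 in AC injury. PCA control 1 was far below the rest of its group, and the PCA groups overlapped. The PCA difference was 0.48 ± 0.20 (adjusted p = 0.102, limma). Robo1 was lower in PCA than in AC controls by 0.72 ± 0.20 (adjusted p = 0.0422, limma), and without PCA control 1 the difference was -0.48. This call was lost in 7 of 12 fits without a single array, those without PCA control 1 or any AC array (adjusted p up to 0.116).

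The netrin receptors included 2 of the 5 members that fell in the PCA. Of the 4 measured, 1 rose and 2 fell there (75%, where all genes gave 25.8%). Unc5c, a repulsive netrin receptor, was at 8.45, 8.02 and 8.97 in PCA controls and 6.97, 7.71 and 7.16 in PCA injury. The AC arrays gave 7.47, 8.30 and 7.83 in controls and 7.58, 7.31 and 7.47 in injury. PCA controls were all above PCA injury arrays, while the AC groups overlapped, and within both control groups its spread was the largest of any member (SD 0.476 and 0.416). It fell 2.3-fold in the PCA, -1.20 ± 0.27 on the log2 scale (adjusted p = 0.00766, limma). The AC difference was -0.41 ± 0.27 (adjusted p = 0.424, limma), and the effects differed by -0.79 ± 0.38 (adjusted p = 0.346, limma). With the squamous covariate the PCA difference was -0.52 (adjusted p = 0.517, limma).

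Unc5a, a further repulsive receptor, was at 7.26, 7.43 and 7.43 in PCA controls and 6.67, 6.65 and 7.01 in PCA injury. Its AC arrays gave 7.18, 7.31 and 7.29 in controls and 6.99, 6.79 and 6.80 in injury. Both muscles had all injury arrays below all controls. It fell by 0.60 on the log2 scale in the PCA (SE 0.11, 1.51-fold, adjusted p = 0.00246, limma), with -0.40 ± 0.11 in the AC (adjusted p = 0.0764, limma) and a difference of -0.20 (adjusted p = 0.567, limma). With the squamous covariate the PCA difference was -0.68 (adjusted p = 0.0725, limma).

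Unc5b, known from vessels and macrophages, went the other way. It was at 8.02, 8.17 and 8.03 in PCA controls, 8.58, 8.43 and 8.39 in PCA injury, 8.27, 8.25 and 8.20 in AC controls and 8.34, 8.27 and 8.63 in AC injury. The PCA controls lay below all other arrays. It rose by 0.39 ± 0.10 in the PCA (adjusted p = 0.0133, limma), and its AC difference was 0.17 ± 0.10 (adjusted p = 0.357, limma). The PCA call was lost without PCA injury 1 (adjusted p = 0.0538), without the 3 thyroid-high arrays (0.385, adjusted p = 0.0651) and with the squamous covariate (0.28, adjusted p = 0.407, limma). Dcc, the attractive receptor, varied little between arrays, at 5.80, 5.66 and 5.74 in PCA controls, 5.63, 5.83 and 5.72 in PCA injury, 5.85, 5.65 and 5.83 in AC controls and 5.75, 5.78 and 5.62 in AC injury. Its values were low, with a mean over all arrays of 5.74. The groups of Dcc overlapped, and it differed by -0.01 ± 0.08 in the PCA (adjusted p = 0.968, limma).

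Among the 3 netrins, 1 was called in the PCA (33.3%, where all genes gave 25.8%). Ntn3 rose there by 0.32 ± 0.10 (adjusted p = 0.0327, limma), with 0.28 ± 0.10 in the AC (adjusted p = 0.141, limma). That call was lost without PCA control 1 or 2 or PCA injury 1 or 3 (adjusted p up to 0.114). It was also lost without the 3 thyroid-high arrays (0.33, adjusted p = 0.0887) and with the squamous covariate (0.43, adjusted p = 0.183, limma). Ntn1, the ligand of Dcc and the Unc5 receptors, was at 8.85, 8.48 and 8.45 in PCA controls, 7.98, 8.46 and 8.49 in PCA injury, 8.89, 8.86 and 8.79 in AC controls and 8.68, 8.06 and 8.40 in AC injury. It was lower in every AC injury array than in every AC control, while the PCA groups overlapped. The differences were -0.28 ± 0.17 in the PCA and -0.47 ± 0.17 in the AC (adjusted p = 0.274 and 0.168, limma). Neither netrin-G gene was called in any comparison.

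**Figure D3:**
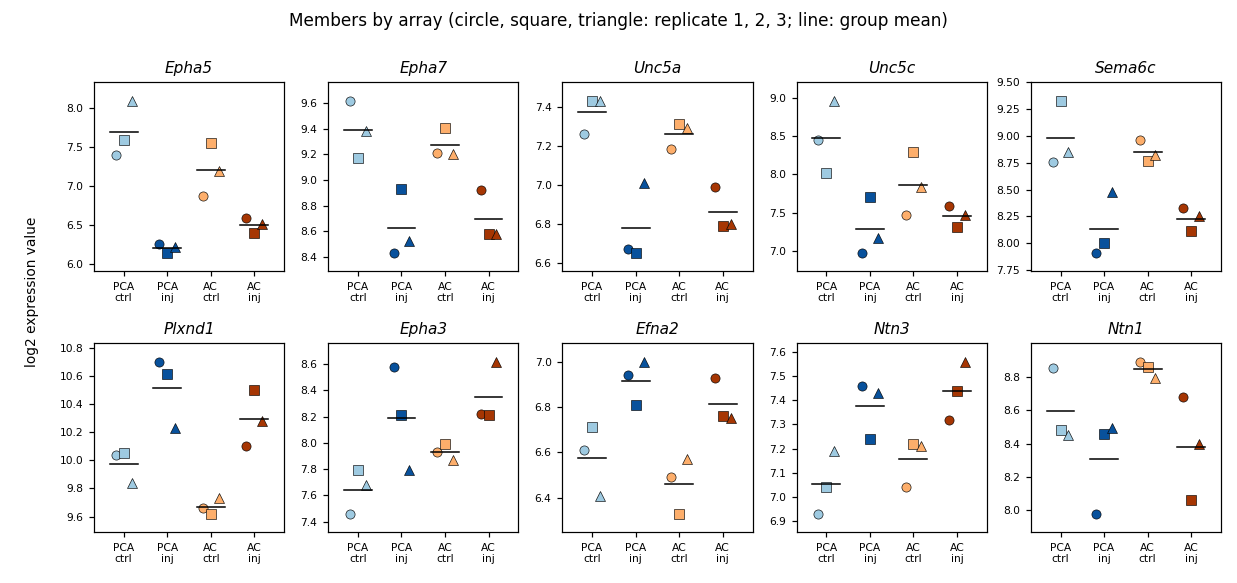
Log2 values by array for 10 members, among them the 5 that fell in the PCA (circle, square and triangle for replicates 1, 2 and 3, line for the group mean). Epha5, Epha7, Unc5a and Sema6c are lower in every injury array than in every control array of both muscles, with a called change in the PCA only, and Plxnd1 is higher in every injury array of both.

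The promoters of 5 of the members that these results turn on are printed with the matches to a pair of common motifs in capitals. Epha5, Unc5a and Sema6c fell in the PCA and had non-overlapping lower values in the AC, Ephb3 was the 1 member with a called difference between the muscles, and Plxnd1 the 1 called in both. Each run holds the 250 bases before the annotated start in RefSeq's GRCr8 assembly, 5′ to 3′ on the gene's strand. Capitals mark the E-box CAGCTG, the core that myogenic regulators bind, and the GC box GGGCGG, shown as CCGCCC where it lies on the opposite strand. The windows are chr14:24007872-24008121 (plus strand) for Epha5, chr17:9675664-9675913 (minus strand) for Unc5a, chr2:185426236-185426485 (plus) for Sema6c, chr11:93363776-93364025 (minus) for Ephb3 and chr4:150715188-150715437 (minus) for Plxnd1.
Epha5: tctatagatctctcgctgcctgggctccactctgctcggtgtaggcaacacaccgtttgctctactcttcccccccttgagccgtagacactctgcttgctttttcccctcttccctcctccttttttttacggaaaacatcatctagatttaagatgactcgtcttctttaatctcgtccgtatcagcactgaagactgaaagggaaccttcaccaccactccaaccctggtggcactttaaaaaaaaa
Unc5a: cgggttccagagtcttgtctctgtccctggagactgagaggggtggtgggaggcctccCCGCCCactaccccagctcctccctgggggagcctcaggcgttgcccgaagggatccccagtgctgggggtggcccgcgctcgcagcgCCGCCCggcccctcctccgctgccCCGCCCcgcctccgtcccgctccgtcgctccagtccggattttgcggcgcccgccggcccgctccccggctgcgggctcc
Sema6c: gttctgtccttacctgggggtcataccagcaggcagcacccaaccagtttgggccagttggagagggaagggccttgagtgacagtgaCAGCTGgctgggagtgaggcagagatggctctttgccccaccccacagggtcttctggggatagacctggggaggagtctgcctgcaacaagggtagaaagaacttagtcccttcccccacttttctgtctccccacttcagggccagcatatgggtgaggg
Ephb3: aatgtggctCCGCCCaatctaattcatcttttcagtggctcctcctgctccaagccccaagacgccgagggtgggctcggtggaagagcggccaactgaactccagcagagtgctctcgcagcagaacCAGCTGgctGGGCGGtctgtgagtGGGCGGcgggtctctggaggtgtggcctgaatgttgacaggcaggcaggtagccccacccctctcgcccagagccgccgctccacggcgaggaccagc
Plxnd1: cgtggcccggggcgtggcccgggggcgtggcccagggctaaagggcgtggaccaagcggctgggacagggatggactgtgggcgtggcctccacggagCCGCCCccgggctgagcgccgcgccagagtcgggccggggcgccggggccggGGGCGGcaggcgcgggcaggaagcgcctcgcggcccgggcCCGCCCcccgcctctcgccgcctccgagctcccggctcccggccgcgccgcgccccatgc

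Sema6c held 1 E-box and Ephb3 1 E-box and 3 GC boxes, Unc5a and Plxnd1 held 3 GC boxes each, and Epha5 held neither motif in this window. Epha7, which had the same pattern in both muscles as Epha5, Unc5a and Sema6c, is not printed. Its window held 2 GC boxes and no E-box. Of the 56 members 46 had a promoter in the table. An E-box was found in 9 of them (19.6%) and in 12% of all 33469 promoters. A GC box on either strand was found in 22 (47.8%) and in 30.5% of all. TGANTCA was found in 1 (2.17%, all promoters 6.34%) and TATAAA on either strand in 0 (all promoters 12.9%). The members' windows were rich in G and C, with a median of 61% where all promoters had 51.2%, and GC boxes are made of these bases alone. From 47.6% in Epha5 to 83.2% in Plxnd1, GC content varied widely among the 5 shown.

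**Figure D4:**
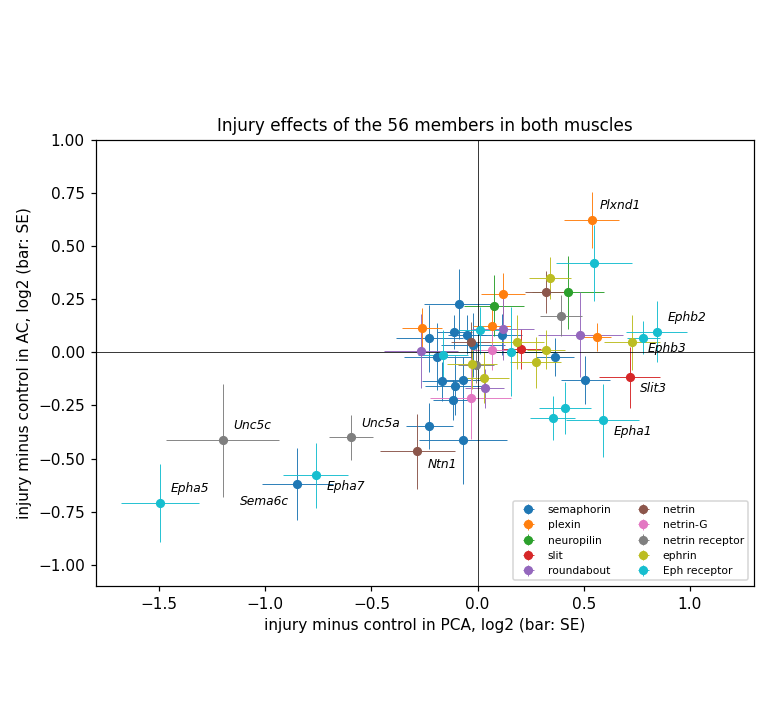
Injury minus control in the PCA (horizontal axis) and in the AC (vertical axis) for the 56 members, in log2 units with bars for the SE from limma, coloured by family. Epha5 lies lowest in both, at -1.50 and -0.71, and Plxnd1 highest in the AC at 0.62, while Ephb2 and Ephb3 lie near 0.8 in the PCA and near 0.1 in the AC.

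Genes of other cell types moved along with the members, and their part in the members' changes was not tested beyond the squamous covariate. In the PCA 11 of 12 macrophage markers and 9 of 10 fibroblast markers rose, and all 11 cartilage and all 9 adipocyte markers fell. The macrophage mean was 8.22 to 8.93 in PCA controls, 10.2 to 10.7 in PCA injury, 9.17 to 9.48 in AC controls and 9.86 to 10.4 in AC injury. The fibroblast mean was 10.4 to 10.9, 11.6 to 12, 10.7 to 11.4 and 11.4 to 11.9 in the same order. In the AC 4 macrophage markers rose, and 0 fibroblast markers did so by limma, with 8 of 10 at an unadjusted p under 0.05.

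The cartilage mean was 9.46 to 10.2 in PCA controls, 8.22 to 8.54 in PCA injury, 8.41 to 9.18 in AC controls and 8.47 to 8.87 in AC injury. The adipocyte mean was 8.66 to 9.08 in PCA controls, 7.30 to 7.95 in PCA injury, 7.42 to 7.49 in AC controls and 7.19 to 7.82 in AC injury. Between controls, 8 of 11 cartilage and 8 of 9 adipocyte markers were higher in the PCA. Cell division genes were 7 of 7 higher in PCA injury, with a mean of 6.17 to 6.29 in PCA controls and 7.26 to 7.69 in PCA injury, and 6 of 7 were lower in PCA than in AC controls. Of 10 skeletal muscle markers 4 fell in the PCA, among them Myh2 (-1.86 ± 0.24, adjusted p = 0.000501, limma), and all PCA injury arrays lay below all PCA controls in their mean. Schwann cell markers went both ways in the PCA, where S100b (-0.99 ± 0.15) and Sox10 (-0.42 ± 0.10) fell and Ngfr rose (0.53 ± 0.09), 3 of 10 in all (adjusted p = 0.00128, 0.0104 and 0.00201, limma). Their mean was 7.79 to 7.85 in PCA controls, 7.64 to 7.74 in PCA injury, 7.76 to 7.83 in AC controls and 7.60 to 7.67 in AC injury. Of 9 neuron markers 1, Tubb3, was called in the PCA (0.97 ± 0.18, adjusted p = 0.00283, limma), and the mean of the 9 was between 5.94 and 6.33 in every array. Myh2, S100b, Sox10, Ngfr and Tubb3 were named after their values were seen.

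**Figure D5:**
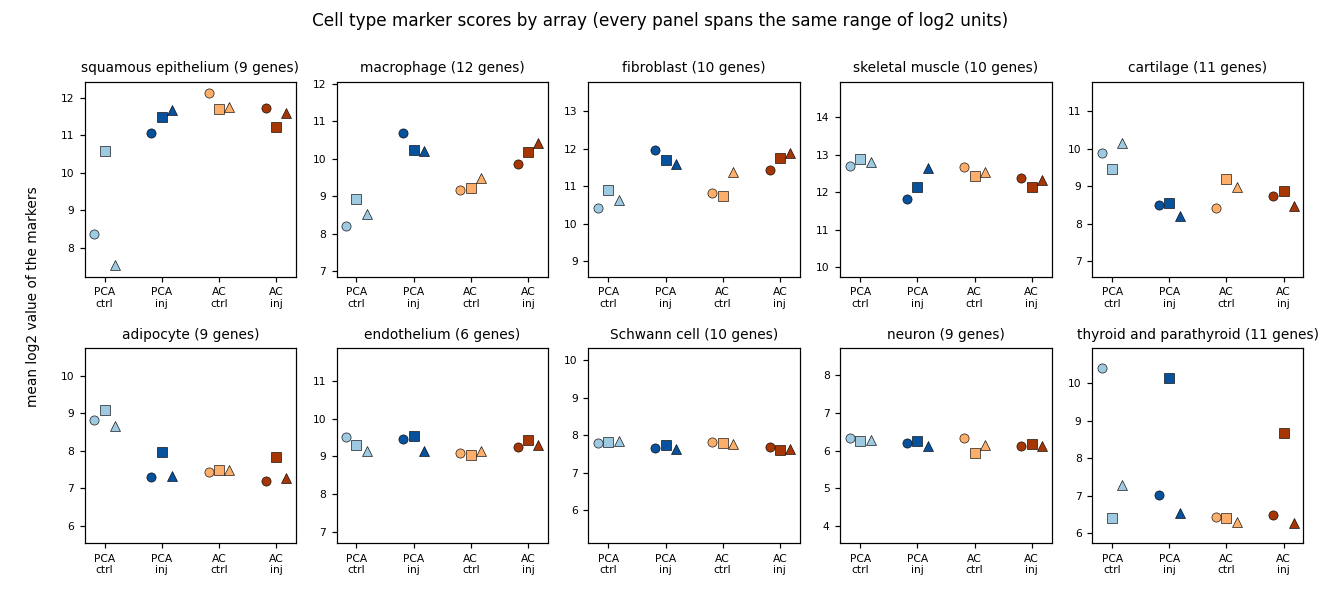
Mean log2 value of 10 cell type marker lists by array (circle, square and triangle for replicates 1, 2 and 3). The squamous mean is 7.53 to 10.6 in PCA controls and 11.1 to 12.1 in the other 9 arrays, and the thyroid and parathyroid mean is high in PCA control 1, PCA injury 2 and AC injury 2.

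Of a list of 91 other axon guidance genes, co-receptors, other ligands, myelin inhibitors and cytoplasmic effectors, 76 were measured, and 22 rose and 6 fell in the PCA (36.8%, where all genes gave 25.8%, median 0.11). Among 46 effectors 16 rose and 3 fell, among 14 co-receptors and adhesion molecules 2 rose and 2 fell, among 10 other ligands 3 rose and 1 fell, and among 6 myelin and Nogo inhibitor genes 1 rose. The rises with the smallest adjusted p were those of the microtubule regulator Stmn1 (0.89 ± 0.11, adjusted p = 0.00044), the adhesion molecule Nrcam (1.15 ± 0.14, adjusted p = 0.000446), the small GTPase Rnd3 (0.78 ± 0.10, adjusted p = 0.000506) and Dpysl3, a mediator of semaphorin signals (1.21 ± 0.17, adjusted p = 0.000801). Of the 6 falls, those with the smallest adjusted p were Cntn2 (-0.73 ± 0.17), Ryk (-0.28 ± 0.07), Rock2 (-0.31 ± 0.08) and Flrt1 (-0.37 ± 0.10), with adjusted p of 0.00924, 0.0137, 0.0155 and 0.017 in limma.

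In the AC 5 of the 76 rose and 0 fell (6.58%, where all genes gave 1.91%, median 0.09): the adhesion molecule Ncam1, itself on the denervation list (1.62 ± 0.22, adjusted p = 0.00984), Enah (0.50 ± 0.08, adjusted p = 0.0199), Nrcam (0.65 ± 0.14, adjusted p = 0.046), Cfl1 (0.60 ± 0.13, adjusted p = 0.046) and Pak1 (0.57 ± 0.13, adjusted p = 0.0478), all by limma. Enah, Cfl1 and Pak1 act on the actin skeleton downstream of guidance receptors. Nrcam was at 5.99, 6.22 and 6.26 in PCA controls, 7.61, 7.10 and 7.20 in PCA injury, 6.53, 6.44 and 6.47 in AC controls and 6.90, 7.17 and 7.32 in AC injury, with every injury array above every control array. Between control muscles 2 of the 76 were higher (Enah 0.49 ± 0.08 and Flrt1 0.47 ± 0.10) and 10 lower in the PCA (15.8%, where all genes gave 10.6%), led by Stmn1 (-0.82 ± 0.11), Tiam1 (-1.31 ± 0.19), Limk2 (-0.52 ± 0.08) and the ligand Wnt5a (-1.11 ± 0.18), with adjusted p of 0.0024, 0.0033, 0.00332 and 0.00452 in limma.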

How the data were processed

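Total RNA of 12 laryngeal muscle samples was labelled with biotin for Affymetrix gene arrays, per the labels' protocols. The authors deposited 1 value per probe set and array on a log2 scale, with the base read from the range of the values. The submitters' processing notes name RMA and Partek and give neither version nor role. Array medians were 7.11 to 7.17. RMA includes quantile normalisation, so a change is relative to the rest of its array, and the number of arrays limits the precision.

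Of 27342 probe sets, 15103 have a single gene symbol in the platform annotation. For 500 genes with several probe sets the highest mean over 12 arrays was used, leaving 14329. One limma model (3.58.1, R 4.3.3) with a mean per group was fitted to all arrays, without a filter on low values, and adjusted by Benjamini-Hochberg over all genes (two-sided, threshold 0.05). The fit was tested on simulated data with independent noise in each array. Of 14329 genes, 66 or 67 each were changed 1.5-fold, 2-fold and 4-fold. Changes of 1.5-fold were recovered in 58.2% (PCA), 65.7% (AC), 34.3% (difference between muscles) and 41.8% (controls) of genes. Those of 4-fold were recovered in 93.9% to 98.5%. False calls were 3.55% to 6.82% of calls, and many changes near 1.5-fold were missed in that setting. In the data 25.8% of all genes were called in the PCA, 10.6% between controls, 1.91% in the AC and 0.154% for the difference. The adjusted p depends on that share, so recovery in the data can differ from these rates and was not tested. The labels do not say whether replicate numbers pair samples, and the main fit did not pair them. Of 18 same-number pairs 4 had r over 0.1 (-0.39 to 0.34). PCA injury with AC injury gave 0.34 for number 2, 0.27 for number 3 and -0.39 for number 1. Correlations within groups of 3 arrays cannot settle whether such arrays share an animal.

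Members and lists were chosen with earlier results of these data known. Described array by array were called members (up to 10 a direction and comparison, by size) and fixed ligand-receptor pairs, of which Sema4d, Plxnb1, Plxnc1, Slit2, Ephb4 and Epha4 were not analysed here. The highest and lowest member of a family were not ranked, since levels of different probe sets are not comparable. Pathway genes named are the 4 a direction with the smallest adjusted p, and Pak1 was added after its value was seen. Promoters are RefSeq's (GRCr8). Alternatives were 10 settings and each array left out.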

Additional observations from a re-analysis of the deposited data

Results flagged for a closer look

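For Epha2, every PCA injury array lay above every PCA control and every AC injury array below every AC control. The PCA difference of 0.35 was called (adjusted p = 0.0288, limma). It was not called with the squamous covariate (0.16, adjusted p = 0.683), without the thyroid-high arrays (0.37, adjusted p = 0.0699) or in 4 fits without a single array. The AC difference of -0.31 was not called (adjusted p = 0.133, limma). The injury effects differed by 0.66 (PCA minus AC), a difference that did not pass limma's test (adjusted p = 0.0689). Ephb3 passed the test of the difference between the muscles' injury effects, at 0.71 (adjusted p = 0.0419, limma), with a rise in the PCA and overlapping groups in the AC, and did not pass with the squamous covariate (adjusted p = 0.621) or without the thyroid-high arrays (adjusted p = 0.196).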

How the results depend on the processing

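In the PCA, 21 members were called; 3 were with the squamous covariate, 10 without the thyroid-high arrays, 15 in a fit of the PCA groups alone, and 14 to 21 without single arrays. In the AC, 1 was called; array weights gave 5 (Epha5, Epha7, Plxnd1, Sema6c and Unc5a), a fit of the AC groups alone 4 (the same without Epha5), and single arrays left out 0 to 3, the most without PCA injury 3. The AC count was 0 with the replicate block, the squamous covariate or without the thyroid-high arrays, where limma passed 11, 13 and 11 members at an unadjusted p under 0.05. For the difference between muscles, 1 was called; array weights gave 4 (Epha2, Ephb3, Plxnb2 and Slit3), and single arrays left out 0 to 7, the most without PCA control 2. That count was 0 with median-centred arrays, the replicate block, the squamous covariate or without the thyroid-high arrays (13, 13, 5 and 11 at an unadjusted p under 0.05 in limma). Between controls, 12 were called, 0 with the squamous covariate (7 at an unadjusted p under 0.05 in limma) and 9 to 13 without single arrays. With the replicate block 21 members were called in the PCA, 20 of them shared with the fit without it (Epha3 lost, Efna5 gained), and 11 between controls, all shared (Robo1 lost). The share of all genes called also moved with the setting. In the AC it was 1.91%, and 0.914% with the squamous covariate and 0.0698% without the thyroid-high arrays. For array weights, median-centred arrays, the replicate block, fits of 1 muscle alone and single arrays left out, that share is not given here. Their member counts therefore cannot be set against all genes. Over named members and alternatives 0 values changed sign past the test, 142 calls were lost and 27 gained. The 2776 values compared include those not called in the main fit, which cannot lose a call. The cause of these changes was not tested; fits without thyroid-high arrays have 9 arrays.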
